A study of Mus musculus with 3 samples.

Results

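Fibroblasts in which at least 3 of the genes Myo16, Mdk, Cthrc1 and Col4a3 were detected were selected from single-cell RNA-seq of mouse back skin, and 917 such cells were found among 13214 fibroblasts and 36868 cells in all. They were chosen by their measured counts. Cells stayed in with 500 or more genes detected and no more than 10% of their UMIs (unique molecular identifiers, each counting 1 captured mRNA molecule) from mitochondrial genes, which left 32377 cells. A kept cell was called a fibroblast where Dcn, Lum, Col1a1, Col1a2 and Col3a1 together gave at least 1% of its UMIs and where no UMI of Ptprc, Epcam or Cdh5 was present, genes of leukocytes, epithelial cells and endothelium. Cells with at least 1 UMI in 3 or 4 of the 4 genes are called members here, and the remaining fibroblasts of the same library are called other fibroblasts.

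The 3 libraries came from full-thickness dorsal skin of wild-type C57BL/6J mice. Their labelled age, 8 weeks, is shorter than the 12 weeks of irradiation and so cannot be the age at sampling of irradiated mice. In CON the skin was not irradiated. In UV it received UVA (315 to 400 nm, 0.6 mW/cm2) mixed with UVB (290 to 315 nm, 3.5 mW/cm2) on alternate days over 12 weeks, and in Rux the same exposure was followed each time by an ointment with 1.5% ruxolitinib, an inhibitor of the kinases JAK1 and JAK2. For its ruxolitinib experiment the study lists vehicle in the CON and UV groups, and the sample labels do not name a vehicle. Skin was taken 24 h after the last exposure. Each condition is 1 library, and the number of mice behind it is not given in the sources used here. Condition and library can therefore not be told apart, no p-value was computed, and all intervals below are exact 95% intervals that cover counting error only.

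Dermal fibroblasts lay down and remodel the collagen and elastic fibres of the skin, and they differ by depth, by their distance from hair follicles and after injury. CTHRC1 is a secreted glycoprotein known from fibroblasts of healing and fibrotic tissue. Midkine, encoded by Mdk, is a heparin-binding growth factor, Myo16 encodes an unconventional myosin, and Col4a3 encodes the alpha-3 chain of type IV collagen, the sheet-forming collagen of basement membranes. Among markers proposed for these cells but not used to select them, Thbs1 encodes thrombospondin-1, a matrix protein that can activate latent TGF-beta, and Ctsk encodes cathepsin K, a protease that degrades collagen.

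The matrices held 13170, 12411 and 11287 cells and 165337289, 133972374 and 131570327 UMIs in CON, UV and Rux. The mice are labelled female, yet in the 3 libraries Ddx3y, a gene of the Y chromosome, stood at 110 to 122 CPM (the usual scaling of UMI counts to a common total per library or group of cells) and Xist, which is transcribed from the inactive X chromosome, at 0.0988 to 0.115 CPM, so the libraries do not match the labelled sex. Between 28 and 50 cell barcodes were shared by a pair of libraries, and none of these belonged to members in both.

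Members made up 1.89% of CON fibroblasts (62 of 3283, interval 1.45% to 2.41%), 5.23% of UV fibroblasts (270 of 5160, 4.64% to 5.88%) and 12.3% of Rux fibroblasts (585 of 4771, 11.3% to 13.2%). The intervals of the 3 libraries did not overlap. Detection of a gene depends on depth, and members were the deeper cells, with median UMI counts of 11234, 11659.5 and 14893 against 5757, 6821 and 9094.5 in other fibroblasts. When every fibroblast with at least 5000 UMIs was thinned to 5000, which left out 1322, 1606 and 892 shallower cells, the rule was met by 0.918% (0.545% to 1.45%), 2.56% (2.07% to 3.13%) and 4.95% (4.29% to 5.68%). The order of the libraries stayed CON, UV, Rux with intervals apart, at shares less than 1 in 2 of those above. At 2500 UMIs the shares were 0.247%, 0.572% and 1.43%, and the CON and UV intervals, 0.0992% to 0.507% and 0.374% to 0.837%, overlapped.

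**Figure D1:**
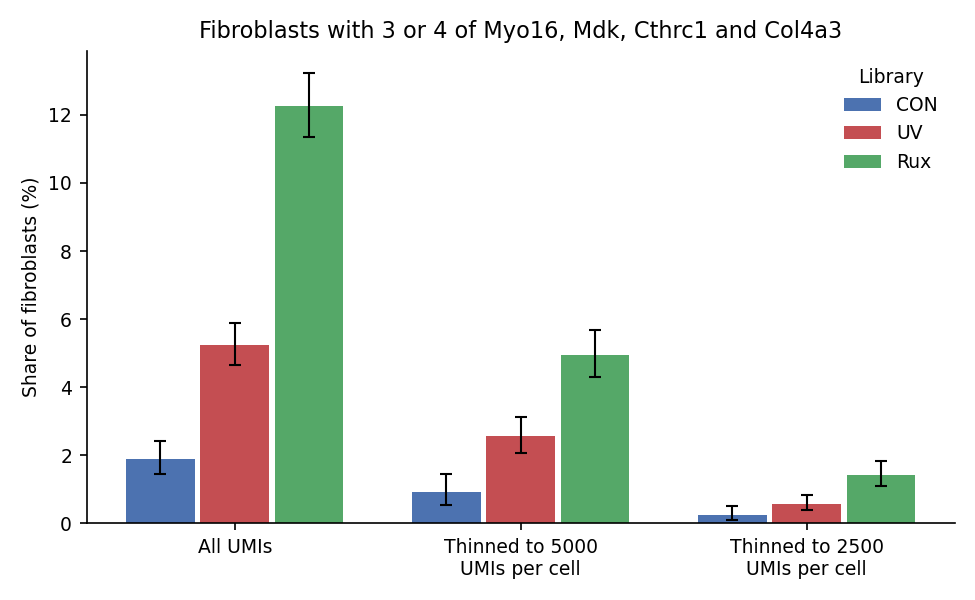
Members as a percentage of fibroblasts in CON, UV and Rux, with all UMIs and after thinning each cell to 5000 or 2500 UMIs. Bars are shares within 1 library and error bars are exact 95% binomial intervals; the share falls with thinning in every library, and Rux stays highest.

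Cells of other types rarely met the same count, though they did not lack the 4 genes. In kept cells that were not fibroblasts Mdk stood at 37.9, 24.8 and 20.4 CPM, against 27.5, 32.5 and 46.1 CPM in other fibroblasts. The remaining genes of the rule were lower there than in other fibroblasts and rose from CON through UV to Rux. Myo16 stood at 3.81, 6.29 and 14.8 CPM against 24.7, 14.8 and 36.0 CPM. Cthrc1 was at 5.15, 7.57 and 14.9 CPM against 34.2, 39.8 and 59.7 CPM, and Col4a3 at 2.78, 3.61 and 5.24 CPM against 19.4, 30.6 and 19.3 CPM. Among cells with an Epcam UMI, 0.275%, 0.557% and 0.605% held 3 or more of the 4 genes in CON, UV and Rux, at median depths of 20301.5, 22031.5 and 21612.5 UMIs. Among cells with a Ptprc UMI the shares were 0 of 764 cells in CON (up to 0.482%), 0.427% in UV and 0.480% in Rux. With a Cdh5 UMI they were 0.536% in CON, 0.184% in UV and 0 of 449 cells in Rux (up to 0.818%). Cells that passed the fibroblast threshold but were set aside for a UMI of Ptprc, Epcam or Cdh5 held 3 or more of the genes in 2.93%, 7.71% and 19.3% of cases, against 1.89%, 5.23% and 12.3% in fibroblasts, with intervals that overlapped in CON and UV and lay apart in Rux. A doublet caller marked 17.7%, 4.07% and 9.06% of members and 4.32%, 7.59% and 8.05% of other fibroblasts.

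The genes of the rule are a description of the choice, not a result. Cthrc1 was detected in 96.8%, 94.1% and 91.8% of members, against 11.7%, 14.4% and 21.1% of other fibroblasts. Myo16 was detected in 90.3%, 75.6% and 89.9% of members, Mdk in 67.7%, 78.1% and 85.1% and Col4a3 in 61.3%, 71.9% and 60.5%. Cthrc1 is the gene that most members share, and Col4a3 the least frequent in CON, UV and Rux. Summed over members, Cthrc1 stood at 198, 225 and 229 CPM, Myo16 at 193, 159 and 249 CPM, Mdk at 93.7, 141 and 180 CPM and Col4a3 at 85.9, 121 and 92.9 CPM. The levels are low: the median member with a Col4a3 UMI carried 1 UMI in CON and UV and 2 in Rux. The combination of Myo16, Mdk and Cthrc1 without Col4a3 made up 38.7%, 28.1% and 39.5% of members, and all 4 genes together 16.1%, 19.6% and 27.4%. Just inside the threshold, 52, 217 and 425 fibroblasts had exactly 3 of the genes at median depths of 10979.5, 11219 and 14771 UMIs. Just outside it, 224, 490 and 642 had 2 of them at 9269, 9227 and 12417 UMIs.

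Both markers outside the rule were higher in members in each library. Ctsk stood at 2075, 1741 and 1830 CPM in CON, UV and Rux members and at 877, 608 and 852 CPM in other fibroblasts, log2 ratios of 1.24 (1.17 to 1.32), 1.52 (1.48 to 1.56) and 1.10 (1.08 to 1.13). Nearly every member carried it: Ctsk was detected in 62 of 62, 270 of 270 and 584 of 585 members. Per cell, the median was 19.97, 16.2 and 18.8 Ctsk UMIs per 10000 in members and 3.42, 3.34 and 5.66 in other fibroblasts. Thbs1 stood at 987, 1990 and 1301 CPM in members against 656, 749 and 601 CPM. Its log2 ratio in CON, 0.59, lay at the limit of 1.5-fold (0.58 on the log2 scale) and was 0.40 without marked doublets, 0.43 in cells with all 4 rule genes, 0.55 under median-of-ratios scaling and 0.57 at a limit of 5% mitochondrial UMIs. In UV and Rux it was 1.41 and 1.11. The median member carried 5.83, 12.1 and 6.91 Thbs1 UMIs per 10000, and the median other fibroblast 0, 0 and 0.394. Ctsk was thus past 1.5-fold in the 3 libraries and Thbs1 most clearly so in the irradiated ones. Both markers were chosen with earlier results of these data known. Their levels describe the members and are no independent check of the label.

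Levels of genes outside the rule moved with the number of rule genes detected. Ctsk rose from 580 CPM in CON fibroblasts with none of the genes through 1069, 1833 and 2024 CPM with 1, 2 and 3 of them to 2331 CPM with all 4. In UV the same series was 397, 700, 1337, 1706 and 1866 CPM and in Rux 594, 867, 1339, 1707 and 2150 CPM. Lpl, the gene of lipoprotein lipase, rose from 160, 230 and 196 CPM with none of the genes to 665, 706 and 819 CPM with all 4. Gdf10, a ligand of the BMP family, went the other way, from 133, 110 and 69.1 CPM with none to 9.36, 15.7 and 9.13 CPM with 3. Coch, which encodes the matrix protein cochlin, went from 78.1, 317 and 276 CPM with none to 6.24, 3.82 and 4.35 CPM with 3. Cells with more rule genes detected were also deeper, and CPM is a share of UMIs.

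**Figure D2:**
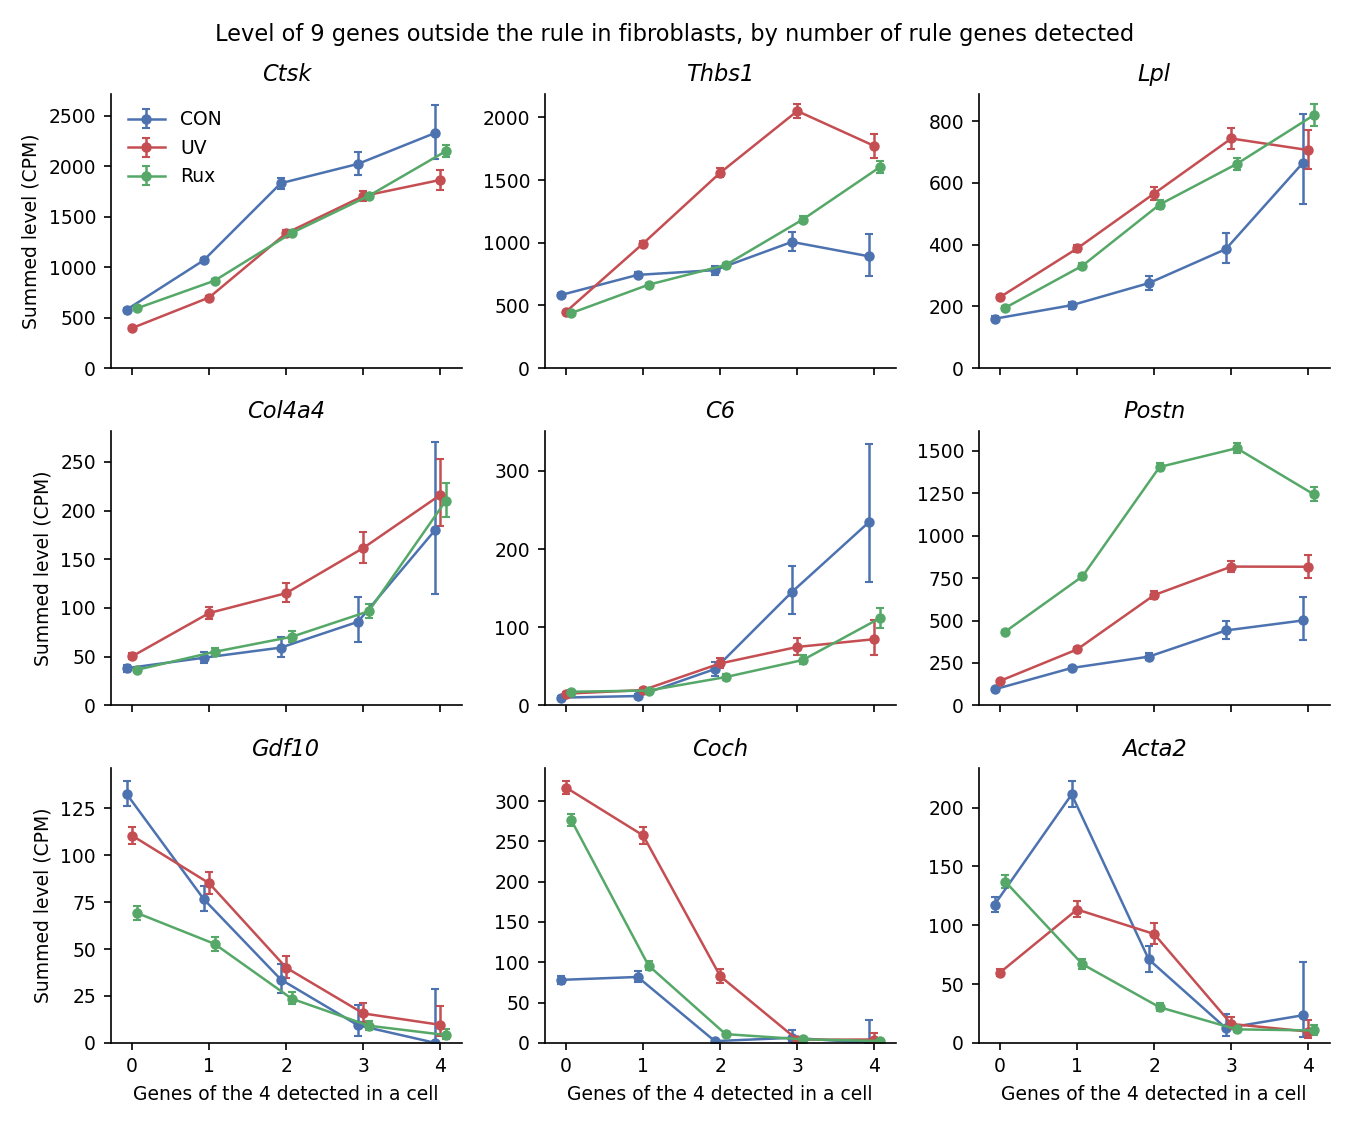
Summed level in CPM of 9 genes outside the rule (vertical axes, linear from 0) in fibroblasts with 0 to 4 of Myo16, Mdk, Cthrc1 and Col4a3 detected, by library, with exact 95% Poisson intervals. Ctsk, Lpl and Col4a4 climb toward the cells with 3 or 4 genes, and Gdf10 and Coch fall to near 0.

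Col4a3 lies head to head with Col4a4, the gene of the alpha-4 chain with which the alpha-3 chain assembles, and Col4a4 was not in the rule. On GRCm38 Col4a4 runs on the minus strand at chr1:82448423-82586849 and Col4a3 on the plus strand at chr1:82586921-82722059 (GENCODE M21). The 71 bases between their annotated starts, chr1:82586850-82586920, are shown because both genes begin at its ends. They are printed on the minus strand, reading toward Col4a4, from the RefSeq promoter window of Col4a4 (GRCm38.p6), with the match of the CACCC box (CCACCC, here as its reverse complement) in capitals.
Col4a4 to Col4a3: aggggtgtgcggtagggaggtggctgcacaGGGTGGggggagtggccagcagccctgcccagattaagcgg
Both strands were searched for the CACCC box, the GC box (GGGCGG), the CCAAT box and the TATA box (TATAAA). The CACCC box alone was found, at 1 place, and the 71 bases at the same place before the start of 32851 RefSeq promoters held it in 10.5% of cases (20.7% for the GC box, 13.3% for the CCAAT box and 4.41% for the TATA box). G and C made up 69.0% of the stretch, against a median of 54.9% in those windows.

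Col4a4 stood at 101, 173 and 128 CPM in members against 44.0, 71.3 and 50.4 CPM in other fibroblasts, log2 ratios of 1.21 (0.85 to 1.54), 1.28 (1.15 to 1.41) and 1.35 (1.24 to 1.45). It was detected in 56.5%, 70.4% and 62.9% of members and in 18.8%, 29.4% and 26.2% of other fibroblasts. Its level went with detection of Col4a3 in the same cell. Members with a Col4a3 UMI had 132.4, 211 and 188 CPM of Col4a4 and members without had 46.8, 77.2 and 50.1 CPM. Other fibroblasts with a Col4a3 UMI had 124, 157 and 152 CPM, and those without had 35.0, 56.2 and 37.7 CPM. Among cells with a Col4a3 UMI, the intervals of members and other fibroblasts overlapped in CON. Members were higher with intervals apart in UV (193 to 231 against 147 to 168) and Rux (177 to 200 against 141 to 163). Col4a4 was thus higher in cells with Col4a3 inside and outside the members. Ctsk was high in members with a Col4a3 UMI (1876, 1664 and 1908 CPM) and without one (2426, 1936 and 1729 CPM). It was lower in other fibroblasts with one (694, 764 and 796 CPM). Of 14 basement membrane genes tested, Col4a4 was the only one higher and Nid2, the gene of nidogen-2, the only one lower. Their median log2 ratios were 0.03, 0.04 and 0.07. Over all 5503 genes tested, 1.13% were higher and 1.74% lower.

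Across the genome, 5503 genes reached, in every library, 20 CPM averaged over members and other fibroblasts and 20 UMIs in both together, and 62 of them (1.13%) were at least 1.5-fold higher in members in each of the 3 libraries, while 96 (1.74%) were at least 1.5-fold lower in each. Members were the deeper cells, and against other fibroblasts matched on UMIs 35 genes were higher, 27 of them among the 62, and 73 were lower, 45 of them among the 96. The median log2 ratio over all 5503 genes was 0.04, 0.00 and -0.00. C6, a terminal component of complement, ranked first by its smallest ratio over the 3 libraries, at 160, 77.0 and 73.0 CPM in members and 14.8, 21.7 and 22.2 CPM in other fibroblasts, log2 3.44 (3.12 to 3.74), 1.83 (1.62 to 2.04) and 1.72 (1.57 to 1.86). A minority of members carried it, 38.7%, 37.4% and 39.1%, against 4.16%, 7.96% and 10.6% of other fibroblasts.

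Lpl stood at 432, 735 and 705 CPM against 187, 318 and 316 CPM, with log2 ratios of 1.21, 1.21 and 1.16. Ak5, an adenylate kinase gene, stood at 37.7, 67.5 and 54.2 CPM against 10.8, 19.3 and 19.0 CPM. Pth1r, the receptor of parathyroid hormone and its related peptide, stood at 112, 95.3 and 76.1 CPM against 43.2, 33.1 and 35.8 CPM. C1qtnf3, a secreted C1q/TNF-related protein gene, was at 269, 241 and 224 CPM against 112, 69.4 and 109 CPM. Adamts2, which cuts the N-terminal propeptide from fibrillar procollagen, was at 722, 987 and 951 CPM against 370, 446 and 469 CPM, and its CON log2 ratio of 0.97 was 0.57 against other fibroblasts of the same depth. Macrod2, Rerg, Ddah1 and St6galnac5, and the non-coding genes Gm17501 and Mirg, had log2 ratios between 0.97 and 1.90 in the 3 libraries.

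Mlana, a melanocyte gene, was also among the higher genes, at 71.5, 64.8 and 70.0 CPM against 20.3, 25.4 and 21.9 CPM. Other melanocyte genes did not share this. Dct, which encodes a melanin-synthesis enzyme, was at 16.9, 26.0 and 20.001 CPM in members and 34.3, 38.1 and 12.3 CPM in other fibroblasts, and Mitf at 195, 182 and 222 CPM against 128, 139 and 187 CPM, neither past 1.5-fold in the 3 libraries. In Rux, 1 member held 61.8% of the Dct UMIs. The 7 melanocyte genes summed to 301, 296 and 330 CPM in members and 209, 238 and 233 CPM in other fibroblasts.

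Among the genes lower in members, Igfbp4, an IGF-binding protein gene, stood at 50.7, 51.4 and 114 CPM in members against 356, 762 and 605 CPM, log2 -2.79 (-3.30 to -2.36), -3.89 (-4.12 to -3.67) and -2.41 (-2.50 to -2.33). In CON, 1 member held 30 of the 39 UMIs of Igfbp4. Acta2, the smooth muscle actin of contractile cells, stood at 14.3, 14.6 and 11.2 CPM against 142, 78.8 and 89.2 CPM. Col11a1, a minor fibrillar collagen, was at 1.30, 3.88 and 3.77 CPM against 72.6, 64.5 and 62.1 CPM, and Coch at 5.20, 3.88 and 3.77 CPM against 70.7, 269 and 155 CPM.

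Gdf10 was at 7.81, 14.3 and 7.75 CPM against 104, 93.9 and 53.5 CPM. Chrdl1, a BMP antagonist, was at 19.5, 35.5 and 14.8 CPM against 88.0, 178 and 74.96 CPM, but its log2 ratio in CON was only -0.33 against other fibroblasts of the same depth. Ptgis, prostacyclin synthase, had 0 UMIs in CON members, where 3 UMIs would be 3.90 CPM, against 43.3 CPM in other fibroblasts. At that floor it was 11.1-fold lower, and the exact interval of its log2 ratio ended at -3.17. Olfr1033 also had 0 UMIs there against 49.8 CPM, 12.8-fold lower at the floor, with an interval ending at -3.37.

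**Figure D3:**
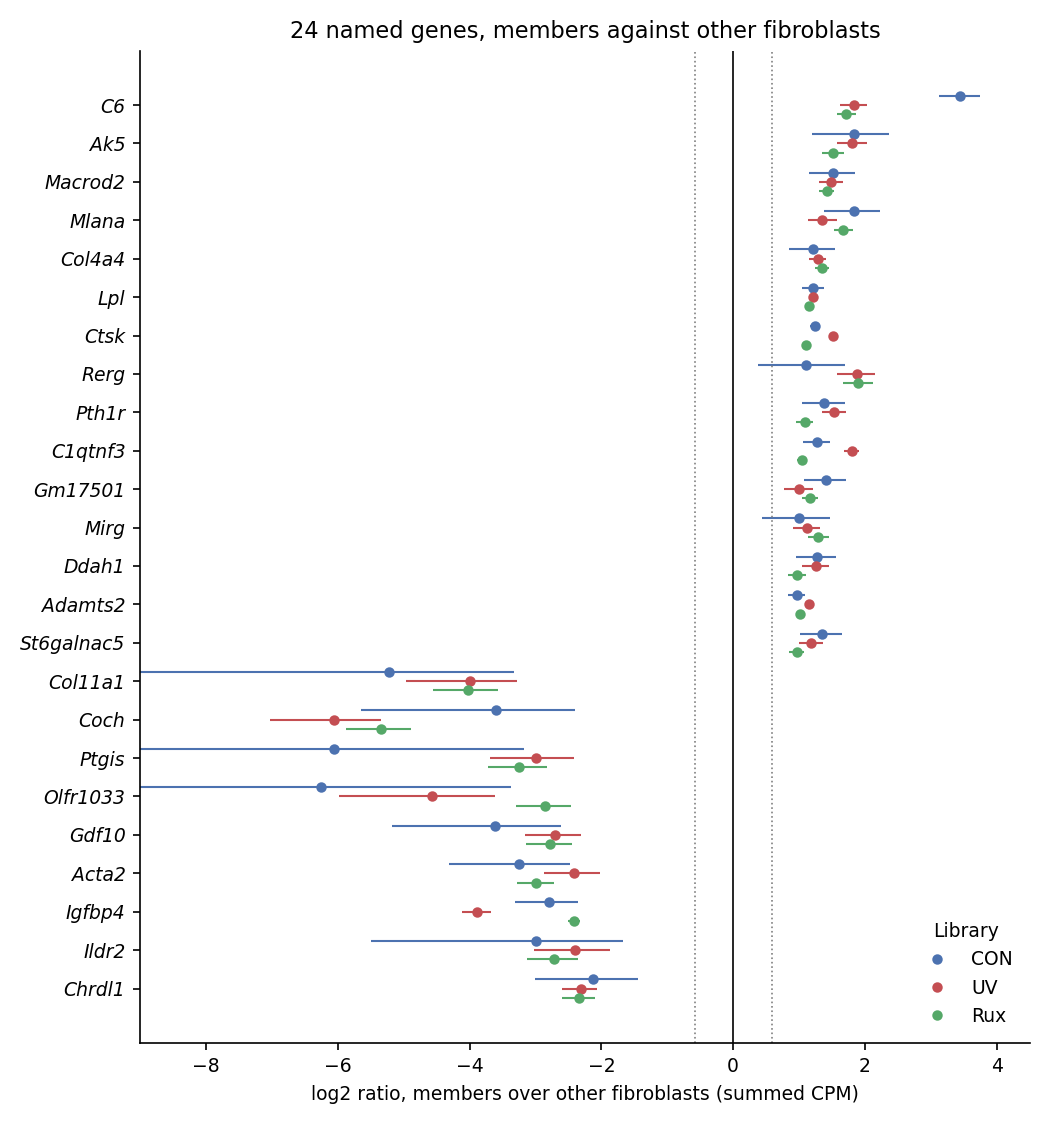
log2 ratio of summed CPM, members over other fibroblasts, for 15 genes at the high end and 9 at the low end, by library. Points are single libraries, lines exact 95% intervals (lines reaching the left edge continue beyond it), and dotted lines mark 1.5-fold; all points lie outside the dotted lines on one side.

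By function, the collagen genes leaned toward members without most of them passing the threshold. Of 23 tested genes for fibrillar collagens and their processing, Col14a1 and Adamts2 were higher and Col11a1 lower, and the median log2 ratios were 0.44, 0.55 and 0.36. Col5a2 was at 687, 792 and 845 CPM against 467, 484 and 569 CPM, and Lox, which crosslinks collagen, at 432, 621 and 469 CPM against 299, 369 and 329 CPM. Col1a1, Col1a2 and Col3a1 were part of the fibroblast definition and were left out of these counts. Among 18 genes of matrix degradation, Ctsk, Mmp14, Adamts2 and Adam12 were higher and Plau, the urokinase gene, lower. Mmp14, a membrane-bound collagenase, stood at 1439, 901 and 1130 CPM against 642, 495 and 697 CPM.

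Of 17 genes linked to TGF-beta, Thbs1 and Postn were higher and none lower, with median log2 ratios of -0.04, 0.35 and 0.29. Postn, the gene of the matrix protein periostin, stood at 451, 817 and 1439 CPM against 157, 264 and 760 CPM. Tnc, tenascin-C, was at 446 and 503 CPM in UV and Rux members against 122 and 125 CPM, and at 101 against 80.5 CPM in CON, where the ratio did not pass. It came from few cells, with a UMI in 27.4% of UV and 26.0% of Rux members.

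Of 7 contractile genes, Acta2, Tagln and Tpm2 were lower and none higher, with a median log2 ratio of -1.52, -0.55 and -0.97. The direction of this list depends on how cells are weighted: with each cell given equal weight its median over libraries was 0.36. After thinning to 5000 UMIs, 5.26%, 2.63% and 2.94% of members and 7.04%, 5.05% and 6.00% of other fibroblasts held an Acta2 UMI. Of 7 dermal sheath genes, Acta2, Col11a1, Lrrc15 and Tagln were lower and Tnmd, tenomodulin, higher, with medians of -2.02, -1.02 and -0.97, or 0.16 at equal weight per cell. For Cnn1, the smooth muscle calponin gene, members had no UMI in any library.

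None of the 6 tested genes of the midkine and pleiotrophin axis, among them the receptors Lrp1, Sdc4 and Itgb1, passed in either direction. The same held for 24 JAK-STAT, 19 oxidative stress, 23 immediate early and 9 adventitial fibroblast genes, and for 4 papillary genes of the study. Over all 5503 genes 1.13% were higher and 1.74% lower, so few or no calls are usual for lists of this size. Lrp1, for example, was at 673, 627 and 692 CPM against 620, 606 and 709 CPM. Of 4 tested reticular genes, Sfrp4 and Col11a1 were lower and none higher, though Lox, given above, leaned toward members. Dcn, of the same list, was part of the fibroblast definition and was left out. Of 11 Wnt pathway genes, the secreted inhibitors Sfrp2 and Sfrp4 were lower and none higher. Of 13 elastic fibre genes, Mfap2 was higher and Ltbp4, a TGF-beta-binding protein of the elastic fibre, lower. Of 19 genes of inflammatory secretion, Cxcl12 was higher, at 682, 837 and 1300 CPM against 322, 464 and 782 CPM, and C3, Cxcl13 and Cxcl14 were lower. C3, the central component of complement, was at 347, 683 and 675 CPM against 793, 2369 and 1903 CPM.

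Markers of keratinocytes, endothelium, pericytes, Schwann cells, melanocytes, skeletal muscle, leukocytes and adipocytes were counted where high enough. Among those counted, Mlana was the only one past 1.5-fold in the 3 libraries. Of 4 tested genes of tendon and fascia, 1 was higher and 1 lower, and Tnmd was given above among the dermal sheath genes. Pparg, a regulator of adipocyte differentiation, was too low to be counted and stood at 22.1, 26.9 and 85.7 CPM in members against 7.61, 9.57 and 21.4 CPM. The summed level of 10 keratinocyte genes was 395, 243 and 270 CPM in CON, UV and Rux members and 559, 255 and 258 CPM in other fibroblasts. For 14 myeloid and lymphoid genes it was 41.6, 21.8 and 44.5 CPM against 50.8, 38.8 and 64.9 CPM, with Cd3e at 0 in members. For 10 endothelial genes it was 35.1, 71.4 and 72.8 CPM against 35.6, 73.6 and 53.1 CPM, for 9 Schwann genes 390, 345 and 380 CPM against 439, 380 and 387 CPM, and for 9 skeletal muscle genes 26.0, 11.05 and 8.27 CPM against 91.3, 18.2 and 26.6 CPM, with Pax7, Myf5 and Myh4 at 0 in members. For 7 adipocyte genes it was 75.5, 57.9 and 210 CPM against 39.4, 53.3 and 93.2 CPM, with Cidec at 0 in members. For 9 genes of pericytes and smooth muscle it was 92.4, 48.7 and 41.6 CPM against 134, 95.7 and 91.9 CPM. Haemoglobin genes, which mark red cell RNA, summed to 6.504, 33.7 and 174 CPM in members against 57.6, 97.1 and 149 CPM, and their part in the results was not tested.

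Clustering of all 13214 fibroblasts without the 4 rule genes and the 5 fibroblast genes placed members in 17 of 20 clusters. Cluster 9, led by G530011O06Rik, Thbs1, Gpr176 and Flt1, held 360 members (39.3%), and cluster 5, led by haemoglobin genes, Fgf23, C6 and Ak5, held 242 (26.4%). Members formed 32.5% of the 1107 cells of cluster 9 and 37.0% of the 654 cells of cluster 5. Most cells of both clusters were thus not members. In cluster 9 those other cells had Thbs1 at 1994, 2531 and 1719 CPM, against 2311, 2934 and 2147 CPM in its members. Other cells of cluster 5 had Ctsk at 2066, 1057 and 1663 CPM and C6 at 214, 51.8 and 63.1 CPM. Its members had 2390, 1696 and 2202 CPM of Ctsk and 291, 74.6 and 90.8 CPM of C6. High Thbs1, Ctsk and C6 were therefore not particular to members. Cluster 9 held 7 of 62 CON members, 134 of 270 UV members and 219 of 585 Rux members, and cluster 5 held 22, 75 and 145. Cluster 12, led by Ednrb and Adamts18, held 76 members, cluster 11, led by Grem1 and F13a1, held 56, and cluster 14, led by Gm46401 and Mast1, held 35. Cluster 6, led by the acute-phase genes Saa3, Hp and Lcn2, held 53 members, 52 of them from Rux. Clusters 16, 18 and 19, led by Rgs5, Coch and Spp1, held no member among 46, 169 and 118 cells. Among the nearest neighbours of a member in the same space, a median of 21.4%, 35.3% and 48.1% were members in CON, UV and Rux. Around other fibroblasts the median was 0%. Members were 1.89%, 5.23% and 12.3% of fibroblasts, and the libraries were joined without batch correction. The neighbour shares therefore do not compare how tightly members group between libraries.

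**Figure D4:**
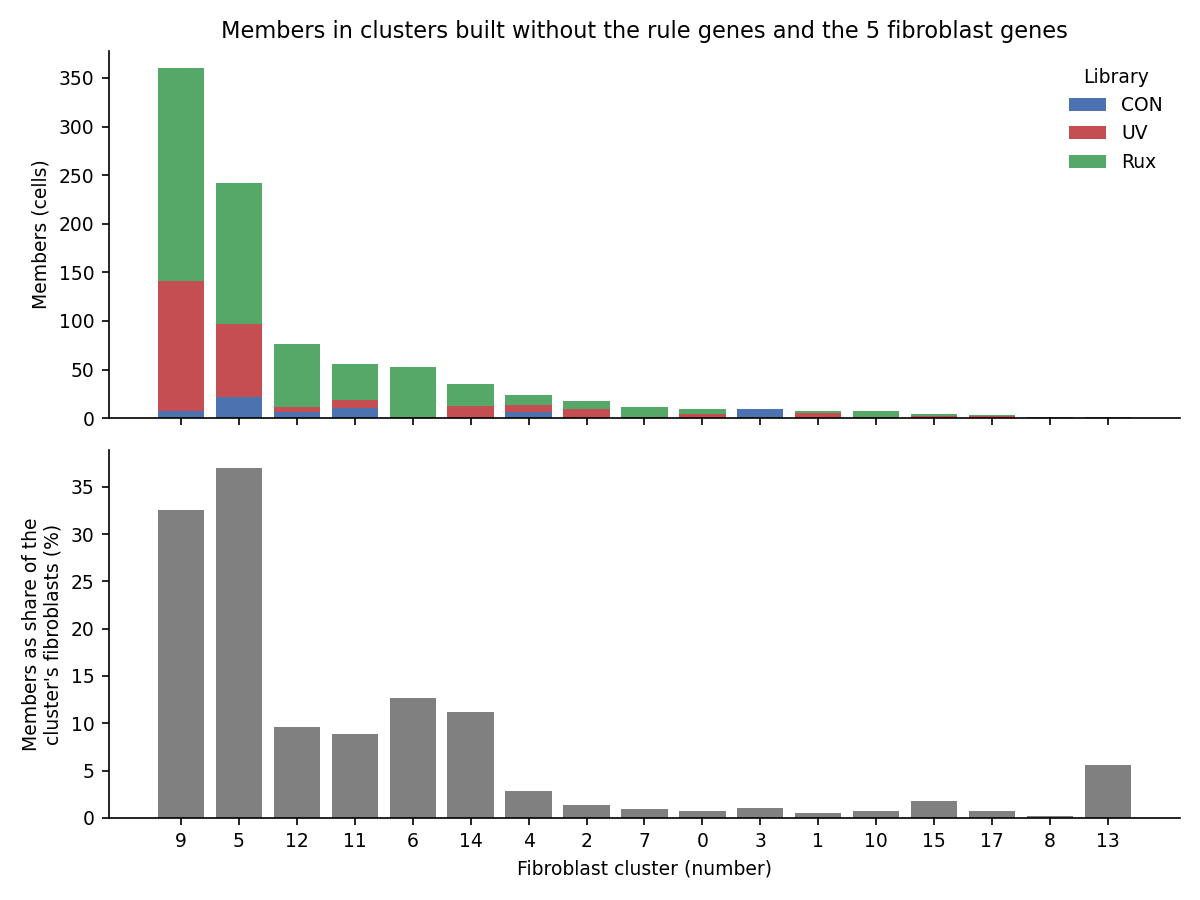
Members in 17 of the 20 fibroblast clusters, by library (upper panel, cells stacked) and as a share of each cluster's fibroblasts (lower panel); clusters without members are left out. Clusters 9 and 5 hold 360 and 242 of the 917 members, and members form 32.5% and 37.0% of them.

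UV and CON members were compared on summed counts, beside the same ratio in other fibroblasts of the 2 libraries. Of 6053 genes tested, 749 (12.4%) were at least 1.5-fold higher and 1020 (16.9%) at least 1.5-fold lower in UV members. The median over all genes was -0.12 on the log2 scale, and after median-of-ratios scaling 976 were higher and 720 lower, so the split between directions rests on the scaling. The 62 CON members hold 768701 UMIs, and a single cell can carry a gene there. Of the higher genes, 724 were measured in other fibroblasts, where 265 passed the same fold and 642 had the same sign. Of the lower genes, 888 were measured, 224 passed and 846 had the same sign.

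Gfra1, a co-receptor for the neurotrophic factor GDNF, was at 9.11 CPM in CON and 180 CPM in UV members, log2 4.21 (3.25 to 5.63), and its log2 ratio in other fibroblasts was 1.48. Gpr39, a zinc-sensing receptor, went from 7.81 to 131 CPM, log2 3.96 (2.94 to 5.53), against 0.74 in other fibroblasts. Arhgap20, Rnd1, Inmt, Baiap2l1, Csmd1 and the non-coding genes G530011O06Rik and Gm15726 had log2 ratios of 2.37 to 3.48. Their ratios in other fibroblasts were 0.74 (Inmt) to 2.76 (Arhgap20), with 2.22 for G530011O06Rik and 1.91 for Gm15726. In CON these 9 genes had 6 to 26 UMIs in members, and few cells carried them: Gpr39 came from 2 CON members, and 1 cell held 47.8% of the Inmt UMIs.

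At the other end, Cdkn2a, which encodes the cell-cycle inhibitor p16, was at 129 CPM in CON and 11.9 CPM in UV members, log2 -3.42 (-4.00 to -2.89), against -2.60 in other fibroblasts. It was detected in 20 of 62 CON and 14 of 270 UV members. Ccl19, a chemokine that draws lymphocytes and dendritic cells, went from 421 to 42.1 CPM, log2 -3.32 (-3.62 to -3.03), with a UMI in 48 CON members. The gene carries a symbol shared by more than 1 annotated copy, and the value belongs to ENSMUSG00000071005. Ccnd1, cyclin D1, went from 157 to 27.8 CPM, against log2 -1.57 in other fibroblasts and -2.50 in members. Hpgd, which inactivates prostaglandins, went from 273 to 58.8 CPM (log2 -2.22), but within cluster 9 its log2 ratio was 0.045, where the 7 CON members held 2 UMIs of it. Within cluster 5, Hpgd was at 154 CPM in CON and 102 CPM in UV members. Saa3 at 241 CPM in CON members came from 3 cells, 1 of which held 130 of the 185 UMIs. Its log2 ratio of -2.61 became 3.98 without marked doublets, so no direction is given for it. Grem1 in CON rested on 6 cells, 1 of which held 65.7% of the UMIs. Cdh4, Snhg15, Tex14 and Adamts9 had log2 ratios of -2.38 to -2.12, and of -2.63 (Cdh4) to -0.58 (Adamts9) in other fibroblasts.

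Of 22 immediate early genes, 12 were lower in UV members and none higher, with a median log2 ratio of -0.64 (-0.91 in other fibroblasts), or 0.011 within cluster 9. Egr1, Junb and Gadd45b had ratios of -1.07, -1.19 and -1.64. Of 20 genes of inflammatory secretion, 9 were higher and 3 lower, with a median of 0.43. Ccl2, a monocyte chemokine, went from 770 to 2034 CPM and Csf1 from 416 to 1003 CPM, log2 1.40 and 1.27, against 0.53 and 1.34 in other fibroblasts. Cxcl5 had 0 UMIs in CON members and 28.4 CPM in UV members, of which 1 cell held 52.6%. Cxcl5 was too low in CON to be counted with this list.

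Of 19 oxidative stress genes, 7 were higher and 1 lower. Hmox1, haem oxygenase-1, went from 54.6 to 208 CPM (log2 1.91, other fibroblasts 3.02) and Gclm, of glutathione synthesis, from 36.4 to 89.6 CPM (log2 1.28 and 1.21). Of 17 TGF-beta genes, 6 were higher and none lower, Tnc (log2 2.13, from 101 to 446 CPM), Pmepa1 (1.08) and Thbs1 (1.01) among them. The respective ratios in other fibroblasts were 0.60, 0.46 and 0.19, and the ratio of Thbs1 in members was 0.34 within cluster 9. Within cluster 5, Thbs1 was at 1398 CPM (1261 to 1545) in CON members and 1113 CPM (1045 to 1183) in UV members, so its direction was not the same in both clusters. Of 25 fibrillar collagen genes, 3 of which were part of the fibroblast definition, Col12a1, Col5a3 and Loxl1 were higher and Col16a1 lower. Of 5 tested cell cycle genes, all were lower in UV members (median -3.74, other fibroblasts -0.59), and 1 CON member held 31 of the 50 Mki67 UMIs and 20 of the 30 Top2a UMIs. Of 6 keratinocyte genes, 4 were lower, with a median of -0.70 in members and -1.08 in other fibroblasts, and the part of these markers in the comparison was not tested.

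Rux and UV members were compared in the same way. Of 5814 genes tested, 249 (4.28%) were at least 1.5-fold higher and 333 (5.73%) at least 1.5-fold lower in Rux members, and the median over all genes was 0.03. Other fibroblasts had the same sign for 216 of 231 higher and 306 of 315 lower genes measured in both, and 103 and 150 passed the same fold there.

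Genes of the JAK-STAT pathway, on which ruxolitinib acts, were lower or within 1.5-fold in Rux members. Of 26 tested, 8 were lower and none higher, with a median log2 ratio of -0.38 in members and -0.20 in other fibroblasts. Socs3, a feedback inhibitor induced by STAT3, was at 514, 455 and 108 CPM in CON, UV and Rux members, log2 -2.07 (-2.19 to -1.96) for Rux over UV and -1.70 in other fibroblasts. Socs1 went from 55.2 to 17.0 CPM (log2 -1.70), Stat2 from 48.7 to 17.5 CPM (-1.48) and Cish from 55.2 to 26.0 CPM (-1.09). Stat3 (-0.62), Osmr (-0.68), Il4ra (-0.72) and Lifr (-0.59), the last 3 being cytokine receptor chains, were also lower. Il6 went from 773 to 219 CPM (log2 -1.82, other fibroblasts -1.10), and Ifi203, an interferon-inducible gene, from 465 to 145 CPM (-1.68 and -1.30).

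Further genes at the low end were Adamts4, a proteoglycan-cleaving protease, at 104 and 18.3 CPM (log2 -2.51, other fibroblasts -1.76), Col8a1, a short-chain collagen, at 113 and 27.9 CPM (-2.01 and -0.08), and Fgf23, a phosphate-regulating hormone, at 151 and 44.2 CPM (-1.77 and -0.70). Cpxm2, Rpgrip1, Cpne8 and G530011O06Rik had ratios of -1.77 to -1.60, and of -1.65 (G530011O06Rik) to -0.40 (Cpxm2) in other fibroblasts. Of 19 oxidative stress genes, 8 were lower and none higher. Hmox1 fell by 1.52 on the log2 scale, to 72.5 CPM, and the metallothionein gene Mt2 by 1.19, to 1175 CPM.

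At the high end stood Saa3, an acute-phase protein gene, at 39.4 CPM in UV and 569 CPM in Rux members, log2 3.85 (3.60 to 4.11), and Hp, haptoglobin, at 53.2 and 301 CPM, log2 2.50 (2.28 to 2.73). The ratios in other fibroblasts were 3.09 and 2.10, and Hp was detected in 30.8% of Rux members. Cxcl13, a B-cell chemokine, went from 56.4 to 266 CPM (log2 2.23, other fibroblasts 0.50). In UV, Cxcl13 came from 30 members, 1 of which held 32.8% of its UMIs. The adipocyte genes Fabp4 and Pparg went from 28.4 to 121 CPM and from 26.9 to 85.7 CPM, log2 2.08 and 1.67, against 0.76 and 1.16 in other fibroblasts. Cyp26b1, a retinoic acid hydroxylase, went from 33.7 to 117 CPM, close to the 121 CPM of CON. Pla1a, a phospholipase gene, went from 30.2 to 91.5 CPM (1.60), with -0.32 in other fibroblasts. Mmp11, Mmp19 and Robo2 had ratios of 1.45 to 1.69, and of 1.12 (Robo2) to 1.87 (Mmp11) in other fibroblasts.

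Of 21 genes of inflammatory secretion, 9 were higher and 2 lower in Rux members, with a median of 0.45. Ccl2 was at 3127 CPM in Rux members, log2 0.62 above UV. Of 25 fibrillar collagen genes, 1 was higher and 3 lower. Outside the fibroblast definition these were Col5a3, higher (log2 1.35), and Pcolce, lower (-0.73). Of the 5 genes of that definition, 2 were lower and none higher. The collagen list summed to 39692.5 CPM in UV and 30062 CPM in Rux members, and to 18885 and 19104 CPM in other fibroblasts. Of 18 TGF-beta genes, 5 were higher and 2, Thbs1 and Col8a1, lower.

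**Figure D5:**
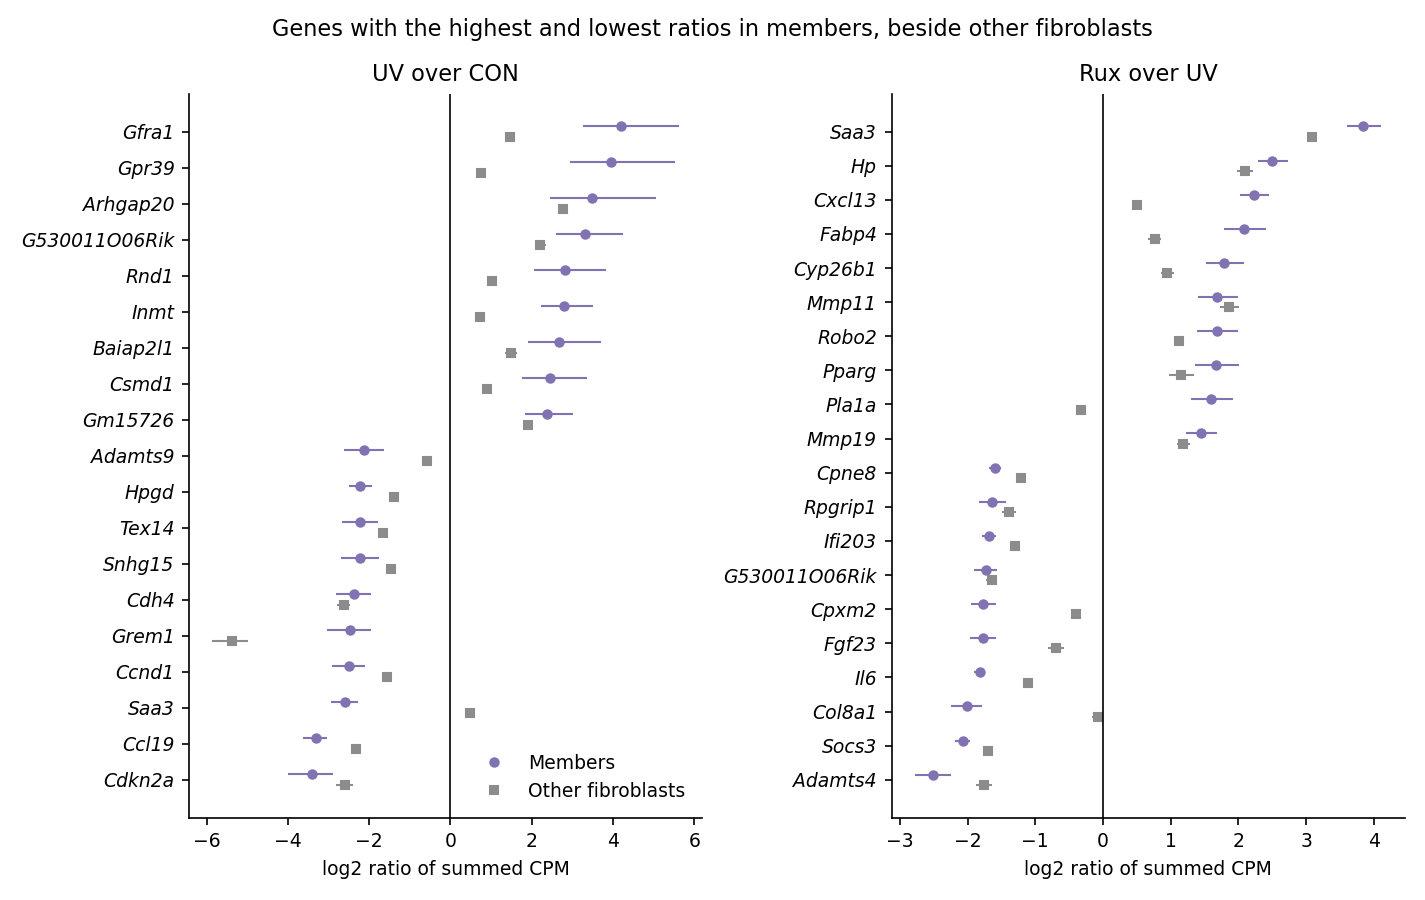
log2 ratios of summed CPM for 9 of the highest and 10 of the lowest genes of UV over CON (left) and 10 of each for Rux over UV (right) in members (circles) and in other fibroblasts (squares), with exact 95% intervals; each ratio compares 1 library with 1 library. Socs3, Il6 and Adamts4 lie below 0 and Saa3 and Hp above 0 in both kinds of cells in the right panel.

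Against CON, Rux members were higher in Gfra1 (log2 2.93) and Hp (6.05, interval 4.72 to 8.55, from 3 UMIs in CON) and lower in Adamts4 (-3.86), Ccl19 (-3.01), Ccnd1 (-2.86) and Socs3 (-2.25). Cdkn2a stood at 33.6 CPM in Rux members, between UV and CON. The UV over CON and Rux over UV ratios share the UV library, and Rux over CON shares a library with each, so these sets of values are not independent of one another.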

How the data were processed

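Single-cell RNA-seq (10x Genomics 3' v3.1) of full-thickness dorsal skin was analysed from 3 libraries, 1 per condition, grouped by the sample labels. The deposited values are raw UMI counts per gene and cell that the authors made with Cell Ranger against mm10. The submitters' processing notes name Cell Ranger 6.1.2 and Seurat 5.3.0 and the matrix header names Cell Ranger 7.0.0, and whether intronic reads were counted is not given in the sources used here, which bears on the level of long genes.

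Counts were summed over cells per library and scaled to CPM. Ratios carry a pseudocount of 0.5 UMIs and are on the log2 scale. A gene was tested, in the sense of being counted, where its average reached 20 CPM and its UMIs reached 20, and called at 1.5-fold or more. Intervals are exact (Poisson, Clopper-Pearson, and conditional binomial for ratios) at 95%. A gene at 0 was given a floor of 3 counts where its fold is stated, while its ratio in the figures keeps the pseudocount. Doublets were scored with Scrublet at 0.8% per 1000 cells and kept, clusters were built with scanpy 1.11.5 (2000 variable genes, 30 components, 15 neighbours, Leiden resolution 1), and Python 3.11.15 with scipy 1.17.1 was used. The steps were tested on simulated data.

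Named genes were the rule genes and markers, the 15 highest and 10 lowest genes by their smallest ratio over the libraries, the 10 highest and 10 lowest of each condition ratio among genes averaging 50 CPM or more with 100 or more UMIs, and genes from lists of pathways and cell types. The members and lists were chosen with earlier results of these data known. Alternatives changed the cell filters, doublet removal, depth, weighting, scaling, expression minimum, comparison cells and clustering. A small number of genes that these rules name are not reported here.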

Additional observations from a re-analysis of the deposited data

How the results depend on the processing

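No paired analysis was possible because each condition is 1 library. The member share in CON, UV and Rux was 3.15%, 8.16% and 17.3% when fibroblast genes had to give at least 2% of UMIs, 0.918%, 2.56% and 4.95% after thinning to 5000 UMIs, and 0.247%, 0.572% and 1.43% after thinning to 2500. The count of genes higher in members was 39 with the 2% limit, 104 with equal weight per cell, 35 against other fibroblasts matched on UMIs (27 of them among the original 62) and 31 at a minimum of 50 CPM, where 35 genes were lower. At that minimum, 482 genes were higher and 378 lower in UV than in CON members, and 148 higher and 178 lower in Rux than in UV members. Fewer genes are counted at that minimum; the cause of the other changes was not tested. Within the cluster that held the most members, with 7 CON cells, 1729 genes were lower in UV members, and 376 were higher in Rux members. The cluster with the most members held 39.3% of them at resolution 1, 42.7% at 0.5 and 27.7% at 1.5, where it was another cluster, led by haemoglobin genes, with 249 of its 254 members from Rux. Direction turned for the contractile list (0.36) and the dermal sheath list (0.16) with equal weight per cell, for Saa3 in UV over CON without marked doublets (3.98) and within the leading cluster (0.86), and there also for Hpgd (0.045, on 2 CON UMIs) and the immediate early list (0.011). Of 25 genes named as higher or lower in members, 21 kept their calls in every library and alternative run; Adamts2 and Chrdl1 in CON (0.57 and -0.33 against UMI-matched cells) and Ddah1 in Rux and Rerg in CON (0.27 and 0.46 with all 4 rule genes) did not. With 62 CON members, depth is least in CON.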
